A study of Mus musculus with 24 samples.

Results

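Loss of Vhl in cells that had all received Cre was examined by setting the 3 libraries labelled Vhl Cre against the 3 labelled WT Cre, which are 6 of the 24 RNA sequencing libraries of the series. The members were taken by name from the column headers of the count table, with no measured value used in that step. Earlier results of these data were known when the comparison and the gene lists below were chosen. The cells are mouse embryonic fibroblasts, the mesenchymal cells that grow out of dissociated embryos in culture, here of stage E13.5, and total RNA was sequenced in bulk. WT cells carried no altered gene per the labels, Vhl cells an altered Vhl, and every Cre library, WT Cre included, has the treatment label KO, while GFP libraries have the label control. Reference was made to 3 Vhl GFP and 3 WT GFP libraries, and to 3 Rassf1a Cre and 3 Vhl/Rassf1a Cre libraries, whose cells carried an altered Rassf1a without and with an altered Vhl. Cre was thus on both sides of the main comparison, and a difference between the Vhl and WT cells that was there without Cre is on it too. The route by which Cre and GFP reached the cells, the exons altered, and the number of embryos, cultures and strains are not in the labels. Nothing says that the 3 libraries of a group came from separate cultures, so the spread behind the p-values may be technical. The series carries a design note on single kidney tubule cells, which the sample labels contradict, and the labels were used.

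The protein made by Vhl is the substrate-binding part of a ubiquitin ligase with the elongins Elob and Eloc, the scaffold Cul2 and the RING protein Rbx1. In oxygen, the prolyl hydroxylases Egln1 to Egln3 mark the alpha subunits of the hypoxia-inducible factors (HIF), Hif1a and Epas1, and the ligase then sends them to the proteasome. Without it the alpha subunits build up as in low oxygen, pair with Arnt and switch on genes for glucose uptake, glycolysis, blood vessel growth and the mitochondrial response to low oxygen. Loss of VHL is the founding event of most clear cell renal cell carcinomas (ccRCC).

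HIF binds DNA at the core ACGTG or GCGTG. The upstream bases of 6 genes that the results below turn on are printed to show where these letters lie in genes that were higher in Vhl Cre (Egln3, Bnip3, Pgk1, Hk2 and Eno1) and in a gene of the same pathway that was lower (Eno2). The sequences are from RefSeq on build GRCm38.p6, 5′ to 3′ on the strand of the gene, up to the annotated start, and that of Bnip3 stops where GENCODE places the gene. Capitals mark ACGTG and GCGTG on either strand (CACGT and CACGC as read here). The palindrome CACGTG, also the site of MYC and BHLHE factors, holds ACGTG on both strands and counts 2 times.
Egln3 (chr12:54203875-54204124, minus strand): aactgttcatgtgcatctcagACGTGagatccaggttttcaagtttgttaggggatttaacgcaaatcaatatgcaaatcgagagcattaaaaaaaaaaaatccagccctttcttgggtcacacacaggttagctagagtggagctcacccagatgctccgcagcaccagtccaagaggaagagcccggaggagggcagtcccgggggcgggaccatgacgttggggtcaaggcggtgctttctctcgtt
Bnip3 (chr7:138909520-138909756, minus strand): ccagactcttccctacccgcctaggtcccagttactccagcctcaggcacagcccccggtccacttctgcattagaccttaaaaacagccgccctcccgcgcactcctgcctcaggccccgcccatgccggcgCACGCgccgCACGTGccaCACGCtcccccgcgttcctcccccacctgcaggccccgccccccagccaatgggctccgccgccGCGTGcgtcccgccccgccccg
Pgk1 (chrX:106186850-106187099, plus strand): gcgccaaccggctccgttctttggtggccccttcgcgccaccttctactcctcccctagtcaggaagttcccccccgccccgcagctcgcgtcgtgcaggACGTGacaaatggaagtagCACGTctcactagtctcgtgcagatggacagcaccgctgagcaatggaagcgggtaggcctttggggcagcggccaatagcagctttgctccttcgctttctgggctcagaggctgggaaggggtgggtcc
Hk2 (chr6:82774455-82774704, minus strand): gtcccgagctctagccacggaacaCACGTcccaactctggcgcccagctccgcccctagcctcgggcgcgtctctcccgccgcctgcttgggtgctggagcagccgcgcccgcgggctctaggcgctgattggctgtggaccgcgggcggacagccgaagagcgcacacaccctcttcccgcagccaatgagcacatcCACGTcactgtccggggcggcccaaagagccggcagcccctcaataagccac
Eno1 (chr4:150236458-150236707, plus strand): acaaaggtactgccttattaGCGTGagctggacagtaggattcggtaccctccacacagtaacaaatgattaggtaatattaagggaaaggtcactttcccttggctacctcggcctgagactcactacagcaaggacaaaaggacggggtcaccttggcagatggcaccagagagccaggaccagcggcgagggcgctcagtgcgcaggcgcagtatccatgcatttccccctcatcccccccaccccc
Eno2 (chr6:124769674-124769923, minus strand): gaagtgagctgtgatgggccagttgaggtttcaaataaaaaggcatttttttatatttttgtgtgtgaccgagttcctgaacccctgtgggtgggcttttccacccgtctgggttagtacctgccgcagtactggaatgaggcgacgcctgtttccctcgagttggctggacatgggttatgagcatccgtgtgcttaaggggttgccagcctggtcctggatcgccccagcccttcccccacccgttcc
The windows of Pgk1 and Hk2 held ACGTG 2 times each, that of Egln3 held it 1 time, and that of Bnip3 held it 2 times in a palindrome, beside 3 GCGTG. Eno1 had 1 GCGTG, 230 bases before its start, and Eno2 had neither core. The 6 printed windows do not stand for all genes. Of other genes named below, Vegfa, Gys1, Car12, Atp7b, Smtnl2 and Mxi1 were higher and had neither core. Car9, Mgarp, Slc2a1, Ache, P4ha1, P4ha2, Pfkfb3, Kdm3a, Higd1a, Egln1, Ak4, Pygl and Pdk1 were higher and had a core. Of lower genes, Hif1a had ACGTG 3 times, and Vhl and Ndufa4 had neither core. The starts used for Hif1a, Pygl, P4ha2, Ache and Higd1a lay 6492, 3805, 829, 735 and 566 bases from those of GENCODE. Each of these distances is longer than the 250 bases searched. Over the 250 bases upstream, ACGTG was found in 16.5% of the 27025 promoters of the table and in 21.2% of the 11564 that belong to tested genes. The share was 21.5% of the 636 promoters of genes at least 2-fold higher in Vhl Cre and 16.0% of the 356 at least 2-fold lower. It was 9 of 22 (40.9%) for the glycolysis list described below, 9 of 26 (34.6%) for the other hypoxia-responsive genes and 8 of 31 (25.8%) for the mitosis list. GCGTG had another order: it was in 44.5% of the promoters of tested genes, 36.2% of those at least 2-fold higher and 33.4% of those at least 2-fold lower, and in 45.5% for the glycolysis list, 61.5% for the other hypoxia-responsive genes and 54.8% for the mitosis list. Either core was in 55.5% of the promoters of tested genes, 47.0% of those at least 2-fold higher and 44.1% of those at least 2-fold lower, and in 72.7%, 65.4% and 64.5% for the 3 lists in the same order. A match is a description of these letters in this window and does not show binding. Sites farther from the start were not searched.

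Library totals were 34734254 to 38789701 counts in WT Cre and 35034266 to 43234172 counts in Vhl Cre, against 29934173 to 55849586 counts over all 24, and replicates differed from each other by more than sampling noise. Levels are CPM, counts scaled to the TMM-corrected total of their library, with no correction for gene length, and a value in brackets after a gene is its log2 fold change where nothing else is named. Fibroblast markers summed to between 47300 and 50800 CPM in Vhl Cre and between 42100 and 45300 CPM in WT Cre. Of 14 markers of the kidney proximal tubule, 9 were under 0.5 CPM in all 6 libraries, among them Slc34a1, Slc5a2 and Hnf4a. Summed levels of epithelial, mesothelial, endothelial, skeletal muscle, cartilage and neural markers were higher in Vhl Cre than in WT Cre, as given further below. Their part in the results was not tested. Of the GFP libraries with an altered Rassf1a, replicate 1 without and replicate 2 with an altered Vhl lay far from the rest of their groups, and both entered only the estimate of the spread.

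In Vhl Cre 3784 genes were higher and 3629 lower than in WT Cre, which is 7413 of the 16573 genes tested or 44.7% (edgeR quasi-likelihood test, Benjamini-Hochberg adjusted p under 0.05). Changes of at least 2-fold were fewer and leaned upward, with 1018 higher (6.14% of those tested) and 555 lower genes (3.35%), 9.49% in all. Among genes with a mean of at least 5 CPM and a symbol that is no clone name, which is the limit for every ranking over all genes below, the highest were A2m, Ache, Atp7b, H2-Ab1 and Smtnl2, with fitted folds of 60.3 (Smtnl2) to 91.4 (A2m), and after Vhl the lowest was Cxcl5. Several gene groups stood on 1 side. Genes of glycolysis, of the hypoxic mitochondrion and of collagen modification were mostly higher, and genes of mitosis, DNA replication, ribosome biogenesis, cholesterol synthesis and the amino acid response were mostly lower.

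The lines also differed where no Cre was given. Between Vhl GFP and WT GFP, which share no library with the main comparison, 5319 genes passed the test (32.1%), 2857 higher and 2462 lower in Vhl GFP. Of the 7413 genes called with Cre, 3103 were called in the same direction with GFP, which is 41.9% of the first list and 58.3% of the second, and 537 in the opposite direction (7.24% and 10.1%). Of the 1018 genes at least 2-fold higher with Cre, 461 (45.3%) were higher with GFP too, 46 (4.52%) were lower and 511 (50.2%) did not pass there. Of the 555 at least 2-fold lower, 268 (48.3%) were lower with GFP, 43 (7.75%) were higher and 244 (44.0%) did not pass. The log2 fold changes of both comparisons correlated at r = 0.493 across genes, which are not independent replicates. Whether the difference with Cre was other than that with GFP was tested as an interaction, and 3846 genes passed (23.2%), 1773 positive and 2073 negative. Counts of list members below are to be set against these shares of all genes, which are 22.8% higher and 21.9% lower with Cre, 17.2% and 14.9% with GFP, and 10.7% and 12.5% in the interaction, and a list near them is no different in count from all genes. The interaction uses the same Cre libraries as the main comparison, so for each gene below the values are set side by side.

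**Figure D1:**
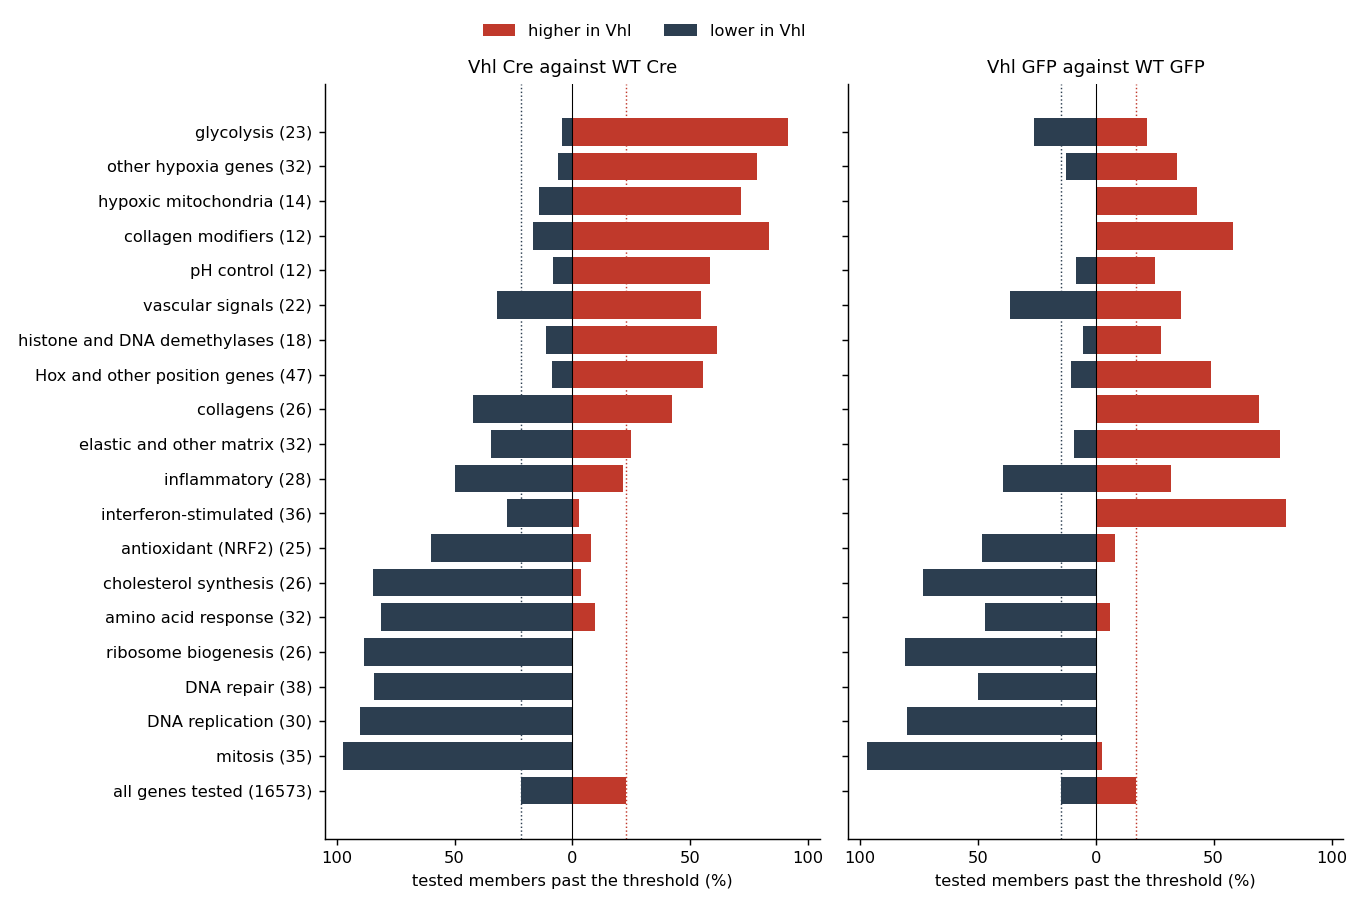
Bars show the percentage of tested members of each gene list (number tested in brackets) that were higher (red, to the right) or lower (dark, to the left) in Vhl cells past the adjusted p threshold of 0.05, with Cre on the left and with GFP on the right, and dotted lines give the same over all 16573 genes. Of the glycolysis list 21 members were higher with Cre and 5 with GFP, the mitosis list points to the lower side in both, and the interferon list to the higher side with GFP.

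Vhl itself came first. Vhl (ENSMUSG00000033933, GRCm38 chromosome 6, 113623959 to 113631633) was at 2.54, 2.34 and 2.85 CPM in the 3 Vhl Cre libraries and at 22.7, 24.0 and 24.4 CPM in the 3 WT Cre libraries. The groups were far apart, and the Vhl Cre level was 10.9% of that in WT Cre (log2 fold change -3.21 with SE 0.11, adjusted p = 1.62e-16). In Vhl GFP libraries Vhl was at 25.7, 27.6 and 26.8 CPM and did not pass the test against WT GFP (log2 fold change 0.19, adjusted p = 0.098), so the Vhl and WT lines did not differ detectably in Vhl without Cre. Counts cover the whole gene, and the altered exons are not given. None of the 4 partners of the ligase passed the test: the log2 fold changes were 0.14 for Elob, -0.25 for Eloc, -0.02 for Cul2 and 0.07 for Rbx1. Eloc passed without WT Cre replicate 2 (adjusted p = 0.0422) or Vhl Cre replicate 1 (0.0439).

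Hif1a, the alpha subunit that most cells use, had less mRNA in Vhl Cre. It was at 82.5, 78.9 and 76.3 CPM against 189, 177 and 204 CPM in WT Cre (log2 fold change -1.26 with SE 0.10, adjusted p = 8.63e-10), and at 202, 192 and 194 CPM in Vhl GFP, with no call against WT GFP. The counts say nothing of the protein, whose amount is set mainly by its breakdown. Epas1, the HIF-2 alpha subunit, was at 19.0, 21.3 and 20.3 CPM against 16.9, 18.8 and 17.6 CPM and did not pass (log2 fold change 0.18, adjusted p = 0.0908). Hif3a, whose short forms inhibit the other alpha subunits, was near the floor of the data at 1.19, 0.983 and 1.18 CPM against 0.0571, 0.130 and 0.0557 CPM. It passed the test, also with GFP, on a few counts per library or none in the WT groups. The partner Arnt did not pass (-0.08), and Arnt2, an alternative partner, was lower with Cre (-0.38) and higher with GFP (0.74).

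Of the hydroxylases that act on HIF, Egln3 and Egln1 were higher in Vhl Cre. Egln3 (ENSMUSG00000035105, GRCm38 chromosome 12, 54178981 to 54203860) was at 204, 209 and 198 CPM in Vhl Cre against 24.2, 22.8 and 24.2 CPM in WT Cre (log2 fold change 3.10 with SE 0.06, adjusted p = 6.18e-20). With GFP the Vhl line had the lower level, 16.1, 16.9 and 16.9 CPM against 24.3, 23.1 and 22.4 CPM, so the interaction was larger than the plain difference (3.58, adjusted p = 7.53e-18). Egln1, the main oxygen sensor of most cells, was at 281, 286 and 278 CPM against 69.9, 73.7 and 71.8 CPM (log2 fold change 1.97 with SE 0.05, adjusted p = 2.73e-19). Egln2 did not pass (0.12). Hif1an, an asparagine hydroxylase that blunts HIF activity, was slightly higher (0.13). The adjusted p was 0.0568 without WT Cre replicate 3 and 0.125 without Vhl Cre replicate 2.

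**Figure D2:**
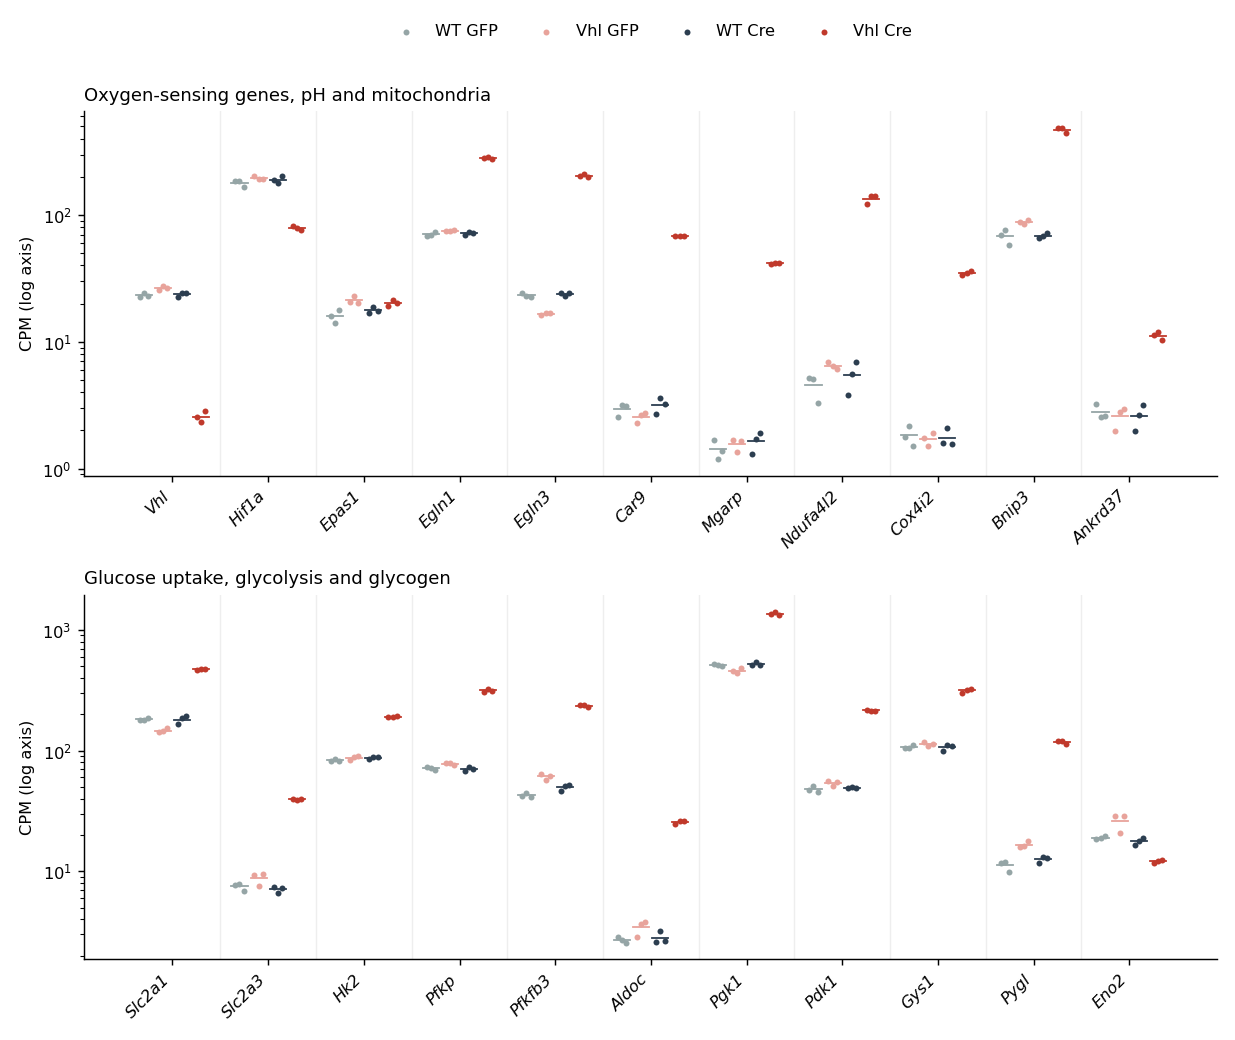
Each point is the level of a gene in 1 library in CPM on a log axis, for WT GFP, Vhl GFP, WT Cre and Vhl Cre (3 libraries each), and each line is the mean of 3. The 3 Vhl Cre libraries stand apart from the other 9 for most genes shown, downward for Vhl, Hif1a and Eno2, while Epas1 overlaps.

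Glucose uptake and glycolysis were higher at nearly every step. Of 23 listed genes, 21 were higher in Vhl Cre, against 22.8% of all genes tested, 1 was lower and 1 did not pass, with a median log2 fold change of 1.10 against 0.00 over all genes. Between the GFP libraries 5 were higher and 6 lower (17.2% and 14.9% of all genes), and 20 passed the interaction upward (10.7% of all genes). The largest changes were in Aldoc, an aldolase, at 24.9, 26.3 and 26.1 CPM against 2.57, 3.17 and 2.65 CPM (log2 fold change 3.20 with SE 0.11, adjusted p = 1.6e-16), and in Slc2a3, a glucose transporter of high affinity, at 39.8, 38.9 and 39.9 CPM against 7.34, 6.63 and 7.27 CPM (2.48). Slc2a1, the transporter most cells rely on, was at 463, 477 and 478 CPM against 166, 184 and 192 CPM (1.39).

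Genes of both early committed steps of the pathway were higher. Hk2, a hexokinase bound to mitochondria that traps glucose in the cell, was at 190, 191 and 193 CPM against 84.9, 88.2 and 89.2 CPM (1.13). The phosphofructokinase Pfkp was at 305, 325 and 314 CPM against 67.7, 73.7 and 70.4 CPM (log2 fold change 2.16 with SE 0.05, adjusted p = 2.73e-19). Pfkfb3, which makes the activator of phosphofructokinase, was at 236, 240.4 and 229 CPM against 46.5, 50.5 and 52.1 CPM (log2 fold change 2.24 with SE 0.05, adjusted p = 4.13e-19). Its relative Pfkfb4 was the member that did not pass (0.03).

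Further down the pathway Pgk1 and Eno1 were higher too, by less than Pfkp and Pfkfb3, though Pgk1 by more than Hk2. Pgk1, which makes the first ATP of glycolysis, was at 1358, 1417 and 1323 CPM against 513, 539 and 507 CPM (log2 fold change 1.40 with SE 0.04, adjusted p = 4.92e-17), and was lower in the Vhl line with GFP (-0.16). Eno1, the common enolase, was at 2629, 3050 and 2945 CPM against 1850, 2216 and 1980 CPM (0.51). Its relative Eno2, known from neurons, was the member that was lower, at 11.7, 12.1 and 12.5 CPM against 16.4, 17.9 and 18.8 CPM (log2 fold change -0.55 with SE 0.09, adjusted p = 3.64e-05), although it was higher with GFP (0.46). Lactate export and the block on pyruvate entry into mitochondria had higher transcripts as well. Slc16a3, the lactate carrier of glycolytic cells, was at 591, 600.1 and 646 CPM against 176, 208 and 215 CPM (log2 fold change 1.62 with SE 0.09, adjusted p = 1.08e-12). Pdk1, the kinase that shuts pyruvate dehydrogenase, was at 218, 215 and 214 CPM against 49.1, 49.8 and 49.0 CPM (log2 fold change 2.13 with SE 0.07, adjusted p = 3.55e-17). In neither gene did the groups overlap.

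Some glycogen genes of both synthesis and breakdown were higher. Of 15 tested members 6 were higher (22.8% of all genes), 3 lower, a count near the 21.9% of all genes, and 6 did not pass. Gys1, glycogen synthase, was at 302, 318 and 325 CPM against 98.5, 112 and 108 CPM (log2 fold change 1.57 with SE 0.06, adjusted p = 1.29e-15). The branching enzyme Gbe1 (1.23) and the targeting subunits of glycogen phosphatase Ppp1r3b (2.02) and Ppp1r3c (2.56) were higher, and Ppp1r3c was higher with GFP too (1.53). Pygl, a glycogen phosphorylase, was at 121, 119 and 114 CPM against 11.7, 13.2 and 12.9 CPM (log2 fold change 3.23 with SE 0.07, adjusted p = 9.46e-20).

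Hypoxic forms of mitochondrial subunits were higher. Of 14 genes of the hypoxic mitochondrion, 10 were higher and 2 lower, and with GFP 6 were higher and the rest did not pass. Ndufa4l2 (ENSMUSG00000040280, GRCm38 chromosome 10, 127514967 to 127517154), which lowers complex I activity in hypoxia, was at 121, 142 and 141 CPM against 3.80, 5.59 and 6.88 CPM (log2 fold change 4.63 with SE 0.16, adjusted p = 3.61e-16). Its relative Ndufa4 was at 57.0, 58.8 and 55.4 CPM against 88.2, 95.2 and 88.7 CPM (-0.67). Cox4i2 (ENSMUSG00000009876, GRCm38 chromosome 2, 152754173 to 152765037), the form of a cytochrome c oxidase subunit used in low oxygen, was at 33.6, 34.7 and 36.5 CPM against 1.60, 2.08 and 1.56 CPM (log2 fold change 4.31 with SE 0.12, adjusted p = 7.36e-18), and the common form Cox4i1 was slightly lower (-0.18). That call was lost without WT Cre replicate 2 (adjusted p = 0.133), Vhl Cre replicate 1 (0.114) or Vhl Cre replicate 3 (0.0558).

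Per kilobase of exon these changes altered which form was in the majority for 1 of the pairs. Ndufa4l2 made up 72.9%, 75.3% and 76.3% of the sum of Ndufa4l2 and Ndufa4 in the 3 Vhl Cre libraries, against 5.15%, 6.90% and 8.92% in WT Cre. Cox4i2 made up 30.3%, 29.2% and 31.0% of the sum of Cox4i2 and Cox4i1, against 1.81%, 2.10% and 1.70% in WT Cre. Eno2 made up 0.508%, 0.452% and 0.482% of the sum of Eno2 and Eno1, against 1.00%, 0.917% and 1.07% in WT Cre and 1.88%, 1.48% and 1.74% in Vhl GFP. The Vhl/Rassf1a Cre libraries showed shares of 77.0%, 75.5% and 78.1% for Ndufa4l2 and 26.2%, 27.1% and 28.2% for Cox4i2.

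**Figure D3:**
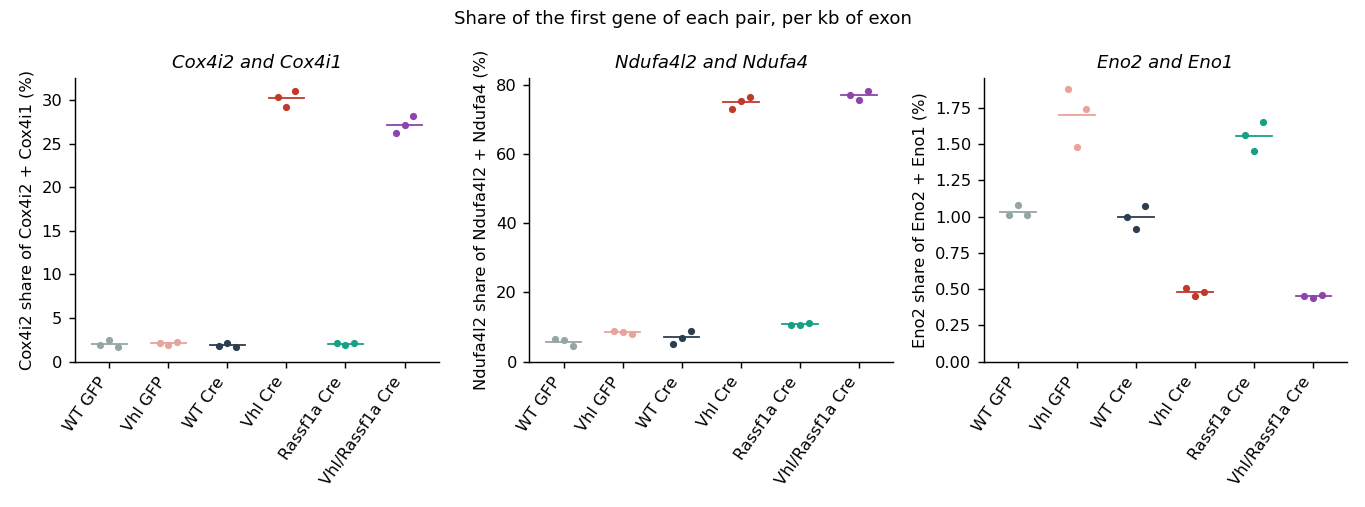
For 3 pairs of related genes, points give the level per kilobase of exon of the first gene as a percentage of the sum of the pair in each library, and lines the mean of 3 libraries. Both groups with an altered Vhl and Cre stand far above the 4 other groups for Cox4i2 and Ndufa4l2 and below them for Eno2.

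Genes that remove or shield mitochondria were higher as well. Bnip3, a receptor for mitophagy, was at 483, 486 and 446 CPM against 66.0, 68.0 and 72.2 CPM (log2 fold change 2.78 with SE 0.10, adjusted p = 6.06e-16). Mgarp, a mitochondrial protein first described in hypoxic cells, was at 41.2, 42.1 and 41.5 CPM against 1.31, 1.72 and 1.90 CPM (log2 fold change 4.66 with SE 0.12, adjusted p = 1.43e-18). Higd1a, which binds cytochrome c oxidase, was at 228, 241 and 229 CPM against 50.7, 49.8 and 51.3 CPM (2.20). Mxi1, which opposes MYC, was higher by 2.18 on the log2 scale.

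Transcripts of the respiratory chain were lower in part. Of 36 nuclear genes of oxidative phosphorylation 14 were lower and 2 higher (21.9% and 22.8% of all genes), with a median of -0.14. With GFP 7 were lower and 1 higher, and the interaction passed downward for 2 of the 36 (12.5% of all genes). The lower count with Cre was 22 without the pair of GFP libraries that stand apart. Examples were Sdha of complex II (-0.35) and Atp5a1 of the ATP synthase (-0.32). Of 13 genes on the mitochondrial DNA 9 were lower (21.9% of all genes) and 4 did not pass, median -0.81. The interaction passed downward for 2 of the 13, and between Vhl/Rassf1a Cre and Rassf1a Cre 1 was lower and the rest did not pass. The share of counts from all genes on the mitochondrial DNA, not only the 13, was 0.865% to 1.03% in Vhl Cre. It was 1.31% to 1.71% in WT Cre and 1.31% to 1.46% in Vhl GFP, with no overlap between Vhl Cre and either. It was lowest of all in the pair of GFP libraries that stand apart (0.730% and 0.711%), so this share also differed within groups, and the part of library quality in it was not tested. mt-Cytb was at 1670, 1423 and 1530 CPM against 3042, 2449 and 2980 CPM (log2 fold change -0.87 with SE 0.16, adjusted p = 0.000137). With GFP the median over the 13 was -0.04.

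Surface genes of pH control were higher. Car9 (ENSMUSG00000028463, GRCm38 chromosome 4, 43506966 to 43513729), a carbonic anhydrase on the cell surface and a marker of ccRCC, was at 68.1, 68.3 and 68.0 CPM against 2.71, 3.59 and 3.23 CPM (log2 fold change 4.42 with SE 0.12, adjusted p = 4.16e-18). Car12, another surface form, was at 94.6, 89.6 and 90.9 CPM against 12.7, 10.9 and 12.6 CPM (log2 fold change 2.92 with SE 0.06, adjusted p = 1.77e-19). The bicarbonate carriers Slc4a4 (1.29) and Slc4a7 (0.44) were higher, and Slc4a4 was higher with GFP too (0.93). Cytosolic Car13 was lower (-0.47). In all 7 of 12 pH genes were higher and 1 lower.

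Copper handling held the third highest of the genes ranked. Atp7b (ENSMUSG00000006567, GRCm38 chromosome 8, 21992785 to 22060305), a copper-exporting ATPase known from the liver, was at 24.4, 22.4 and 24.1 CPM against 0.314, 0.390 and 0.335 CPM (log2 fold change 6.07 with SE 0.21, adjusted p = 2.04e-16), and at 0.348, 0.155 and 0.399 CPM in Vhl GFP. Its relative Atp7a, the form of most other tissues, was higher by little (0.43). The metallothioneins Mt1 and Mt2, which bind copper and zinc, were higher (1.31 and 1.10), also with GFP (0.46 and 0.40). Of 11 copper genes 5 were higher and 6 did not pass, with the same counts with GFP, and the interaction passed upward for 3. Iron genes leaned the other way, 3 higher and 7 lower of 13, against 4 higher and 3 lower with GFP. The transferrin receptor Tfrc was at 102, 86.0 and 94.6 CPM against 168, 151 and 173 CPM (-0.80), and was lower with GFP as well (-0.99). The iron carrier Slc11a2 was lower (-0.74). Heme oxygenase Hmox1 was higher (0.55), as was the ferroxidase Cp (1.24), which differed by the same amount with GFP (1.25).

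Signals to blood vessels split. Of 22 listed genes 12 were higher and 7 lower in Vhl Cre, and 8 higher and 8 lower in Vhl GFP. Vegfa, the main growth factor of vessels, was at 351, 354 and 369.9 CPM against 139, 144 and 152 CPM (log2 fold change 1.30 with SE 0.06, adjusted p = 9.75e-15). Its relative Pgf was at 20.1, 23.9 and 22.8 CPM against 2.23, 3.51 and 2.40 CPM (log2 fold change 3.03 with SE 0.15, adjusted p = 1.85e-13). Both were higher with GFP by less (0.34 and 0.54).

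The secreted peptides Apln, Adm and Stc2 were lower in the Vhl line with GFP and higher with Cre, and are set together here because of that pattern. Apln, the peptide apelin, was at 92.7, 97.8 and 94.7 CPM in Vhl Cre against 41.5, 40.8 and 34.7 CPM in WT Cre, and at 19.0, 22.8 and 25.0 CPM in Vhl GFP against 55.2, 52.3 and 61.7 CPM in WT GFP. The log2 fold changes were 1.28 and -1.34, and their difference passed the test (2.62, SE 0.13, adjusted p = 6.07e-13). Adm, the vessel-widening peptide adrenomedullin, followed the same order (1.17 and -0.33), as did Stc2, a secreted stanniocalcin (2.26 and -0.62). The receptor Ednra for endothelin was lower in Vhl Cre, at 4.46, 3.95 and 4.03 CPM against 16.0, 14.3 and 18.3 CPM (log2 fold change -1.97 with SE 0.12, adjusted p = 5.08e-12), with no call with GFP (0.18).

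Genes that modify collagen were mostly higher, as were many demethylases. Of 12 collagen-modifying genes 10 were higher and 2 lower, with 7 higher with GFP. P4ha2, an alpha subunit of collagen prolyl hydroxylase, was at 709.5, 757 and 746 CPM against 168, 181 and 181 CPM (log2 fold change 2.06 with SE 0.06, adjusted p = 3.53e-18). Plod2, a lysyl hydroxylase that sets collagen cross-links, was at 811, 762 and 724 CPM against 203, 191 and 204 CPM (log2 fold change 1.94 with SE 0.11, adjusted p = 1.93e-12). P4ha1 (0.94), Plod1 (1.43), Loxl2 (1.02) and P4hb (0.39) were higher too. Of 18 histone and DNA demethylases 11 were higher and 2 lower. Kdm4b was at 74.5, 76.4 and 78.8 CPM against 30.1, 37.8 and 34.3 CPM (1.17), Kdm3a was higher by 0.93, Kdm5b by 0.66 and Tet2 by 0.78.

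The remaining hypoxia-responsive genes were higher in 25 of 32 cases and lower in 2, Vhl and Ddit3, with 11 higher and 4 lower with GFP. Vldlr, a lipoprotein receptor, was at 184, 176 and 168 CPM against 28.8, 31.6 and 31.9 CPM (log2 fold change 2.52 with SE 0.07, adjusted p = 4.62e-18). The adenylate kinase Ak4 was at 159.7, 162 and 157 CPM against 31.0, 31.1 and 32.0 CPM (2.35), and Ndrg1, a stress gene of the N-myc family, at 67.7, 67.7 and 66.8 CPM against 13.0, 14.3 and 14.7 CPM (2.27). Gpr35, a receptor, was at 30.6, 34.9 and 32.2 CPM against 4.17, 4.58 and 4.15 CPM (2.92) and was lower with GFP (-0.62). Hilpda, which coats lipid droplets in hypoxia, was higher by 1.69.

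Of 23 genes known to be raised in ccRCC, 13 were higher in Vhl Cre, 6 lower and 4 did not pass. The largest were Ndufa4l2, Car9 and Egln3, given above. Ccnd1, the cyclin D1 that is high in these tumours, was lower here, at 437, 437 and 439.6 CPM against 684, 682 and 656 CPM (log2 fold change -0.62 with SE 0.05, adjusted p = 2.12e-10), and did not pass with GFP (0.01). Igfbp3 was higher with Cre (0.82) and more so with GFP (1.71).

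Among the 12 highest of the genes ranked several have no place in the classic hypoxia list. A2m (ENSMUSG00000030111, GRCm38 chromosome 6, 121635376 to 121679227), a protease trap of the blood, was at 28.1, 25.6 and 24.8 CPM against 0.143, 0.260 and 0.446 CPM (log2 fold change 6.51 with SE 0.22, adjusted p = 2.4e-16), and at 0.813, 0.543 and 0.446 CPM in Vhl GFP. Ache (ENSMUSG00000023328, GRCm38 chromosome 5, 137287519 to 137294466), acetylcholinesterase, was at 16.7, 15.2 and 17.7 CPM against 0.286, 0.234 and 0.167 CPM (log2 fold change 6.16 with SE 0.18, adjusted p = 1.91e-17). H2-Ab1 (ENSMUSG00000073421, GRCm38 chromosome 17, 34257689 to 34269419), the beta chain of an MHC class II molecule, was at 42.6, 45.1 and 46.0 CPM against 0.571, 0.832 and 0.725 CPM (log2 fold change 5.96 with SE 0.18, adjusted p = 1.84e-17). Every WT Cre library was under 1 CPM for these 3 genes, and the groups were far apart. Smtnl2, a smoothelin relative, was at 13.8, 13.9 and 14.2 CPM against 0.228, 0.312 and 0.139 CPM (5.91), and Kbtbd11, a Kelch protein, at 13.3, 14.4 and 12.6 CPM against 0.371, 0.572 and 0.502 CPM (4.79). For all 5 the interaction passed: it was 5.09 for A2m, 4.98 for Ache, 5.34 for H2-Ab1, 4.76 for Smtnl2 and 4.01 for Kbtbd11.

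The lowest of the genes ranked, after Vhl, were of several kinds. Cxcl5, a chemokine for neutrophils, was at 8.47, 6.95 and 6.93 CPM against 55.2, 45.5 and 54.1 CPM (log2 fold change -2.79 with SE 0.14, adjusted p = 1.02e-13), and was lower with GFP by less (-0.75). Gsta4, a glutathione transferase for lipid aldehydes, was at 4.26, 4.54 and 3.91 CPM against 22.1, 24.2 and 21.9 CPM (log2 fold change -2.42 with SE 0.27, adjusted p = 1.07e-07), with no call with GFP. B3gnt5, a glycosyltransferase, was at 3.17, 3.02 and 3.22 CPM against 13.8, 13.3 and 16.4 CPM (-2.21). The growth factor Hgf was at 4.49, 3.63 and 3.94 CPM against 16.0, 15.0 and 16.1 CPM (-1.96), and Fbln1, a matrix fibulin, at 18.5, 19.2 and 21.5 CPM against 63.4, 72.0 and 68.0 CPM (-1.78). Slc7a5, the carrier of large amino acids, was at 31.3, 29.5 and 33.9 CPM against 105, 114 and 120.2 CPM (-1.84). Apol6 (-2.15), Cxcr6 (-1.93) and Pclaf (-1.91) were also among the 12 lowest.

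**Figure D4:**
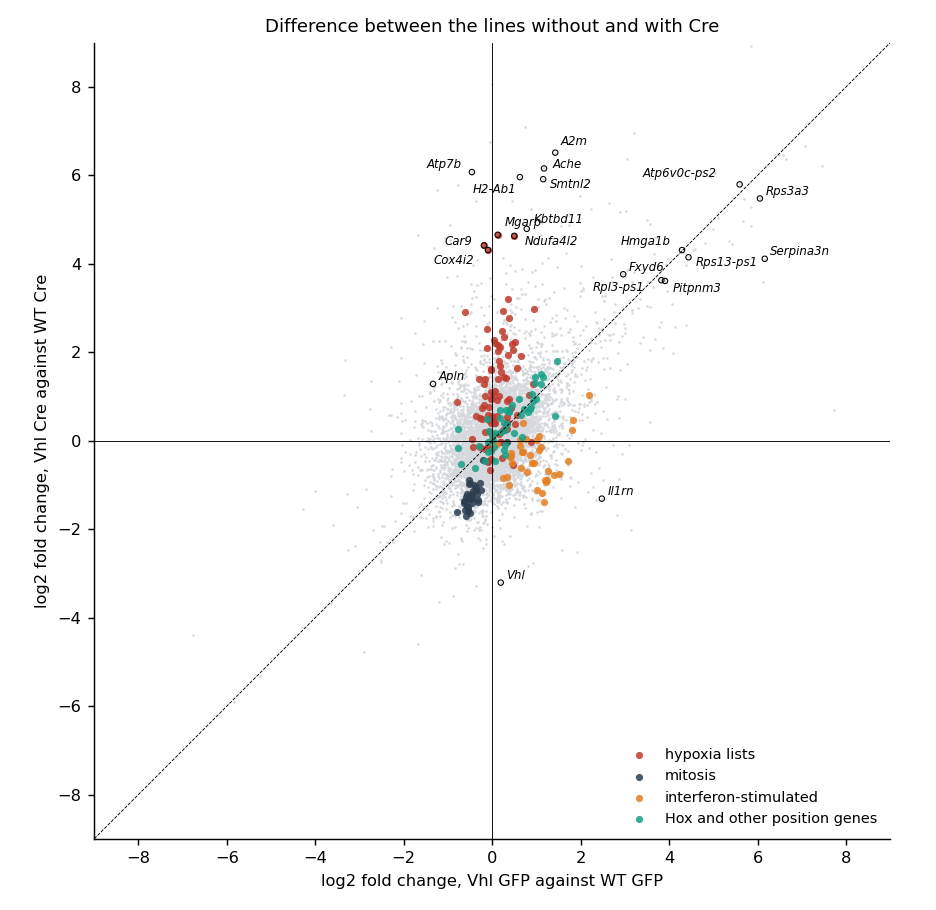
Each grey point is 1 of 16573 genes, with its log2 fold change between the lines with GFP on the x axis and with Cre on the y axis (3 genes lie outside the axes), and the dashed line marks equal differences. Hypoxia genes (red) lie mostly along the vertical axis, mitosis genes (dark) mostly below 0 on both axes, most interferon genes (orange) right of 0, and a set of genes near the dashed line at the upper right differed between the lines with and without Cre.

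Some of the largest differences were differences between the lines. The 8 largest with GFP among the genes ranked that passed in the same direction with Cre were all higher in Vhl cells with Cre and with GFP. Serpina3n, a secreted protease inhibitor, was at 32.9, 31.2 and 30.2 CPM in Vhl Cre and 64.8, 56.4 and 56.6 CPM in Vhl GFP, against 1.97, 1.72 and 1.76 CPM in WT Cre and 0.899, 0.863 and 0.672 CPM in WT GFP. Fxyd6, a regulator of the sodium pump, had log2 fold changes of 3.76 with Cre and 2.96 with GFP, and Pitpnm3, a lipid transfer protein, of 3.61 and 3.91. The other 5 are copies of genes for ribosomal proteins (Rps3a3, Rps13-ps1, Rpl3-ps1), a proton pump subunit (Atp6v0c-ps2) and a chromatin protein (Hmga1b). Rps3a3 was at 52.6, 51.2 and 47.0 CPM in Vhl Cre against 1.17, 1.20 and 1.00 CPM in WT Cre. Since near-identical copies share reads, these 5 are uncertain.

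Genes of cell division were lower as a body. Of 35 mitosis genes 34 were lower in Vhl Cre, against 21.9% of all genes, with a median log2 fold change of -1.28. The Vhl line had lower levels without Cre too, 34 of 35 lower with GFP at a median of -0.50. The interaction passed downward for all 35 (12.5% of all genes), so the difference lay further down with Cre than with GFP. Ccnb2, a cyclin of mitosis, was at 12.1, 11.4 and 11.6 CPM in Vhl Cre, 37.4, 40.7 and 35.9 CPM in WT Cre, 26.0, 23.6 and 24.2 CPM in Vhl GFP and 38.2, 36.4 and 36.0 CPM in WT GFP. Vhl Cre was lowest, Vhl GFP lay between, and the WT groups overlapped (with Cre log2 fold change -1.70 with SE 0.06, adjusted p = 7.57e-16, interaction -1.11). Kif20a, a motor of cell cleavage, was at 34.4, 31.7 and 36.5 CPM against 100.2, 106 and 96.6 CPM (log2 fold change -1.56 with SE 0.06, adjusted p = 5.95e-16). Cenpa, the histone of centromeres, was at 15.9, 14.0 and 16.8 CPM against 47.2, 48.5 and 47.6 CPM (log2 fold change -1.62 with SE 0.06, adjusted p = 1.15e-15). Bub1b, Ccnb1 and Prc1 had log2 fold changes of -1.47, -1.57 and -1.31. The member that did not pass was Pttg1, the securin, at 10.7, 11.4 and 12.5 CPM against 11.4, 12.4 and 11.3 CPM (-0.02). In these bulk libraries fewer dividing cells and less RNA per cell cannot be told apart.

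Replication and repair genes followed. Of 30 replication genes 27 were lower and the rest did not pass, with a median of -0.67, and with GFP 24 were lower at a median of -0.36. Tk1, thymidine kinase, was at 16.7, 18.0 and 19.9 CPM against 40.6, 45.6 and 39.2 CPM (-1.20), and the helicase subunit Mcm6 at 66.8, 68.0 and 67.2 CPM against 106, 109 and 101 CPM (-0.65). Of 38 DNA repair genes 32 were lower and the rest did not pass (median -0.49), against 19 with GFP. Fanci (-1.48) and Fancd2 (-1.29), which act together on cross-linked DNA, were among them. Many repair genes are known to rise and fall with the cell cycle. Of 26 genes that brake the cycle or answer to p53, 3 were higher and 12 lower. Cdkn2b, an inhibitor of cyclin D kinases, was higher (0.40), and Btg2 (-0.77), Cdkn2c (-0.67) and Mdm2 (-0.38) were lower.

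**Figure D5:**
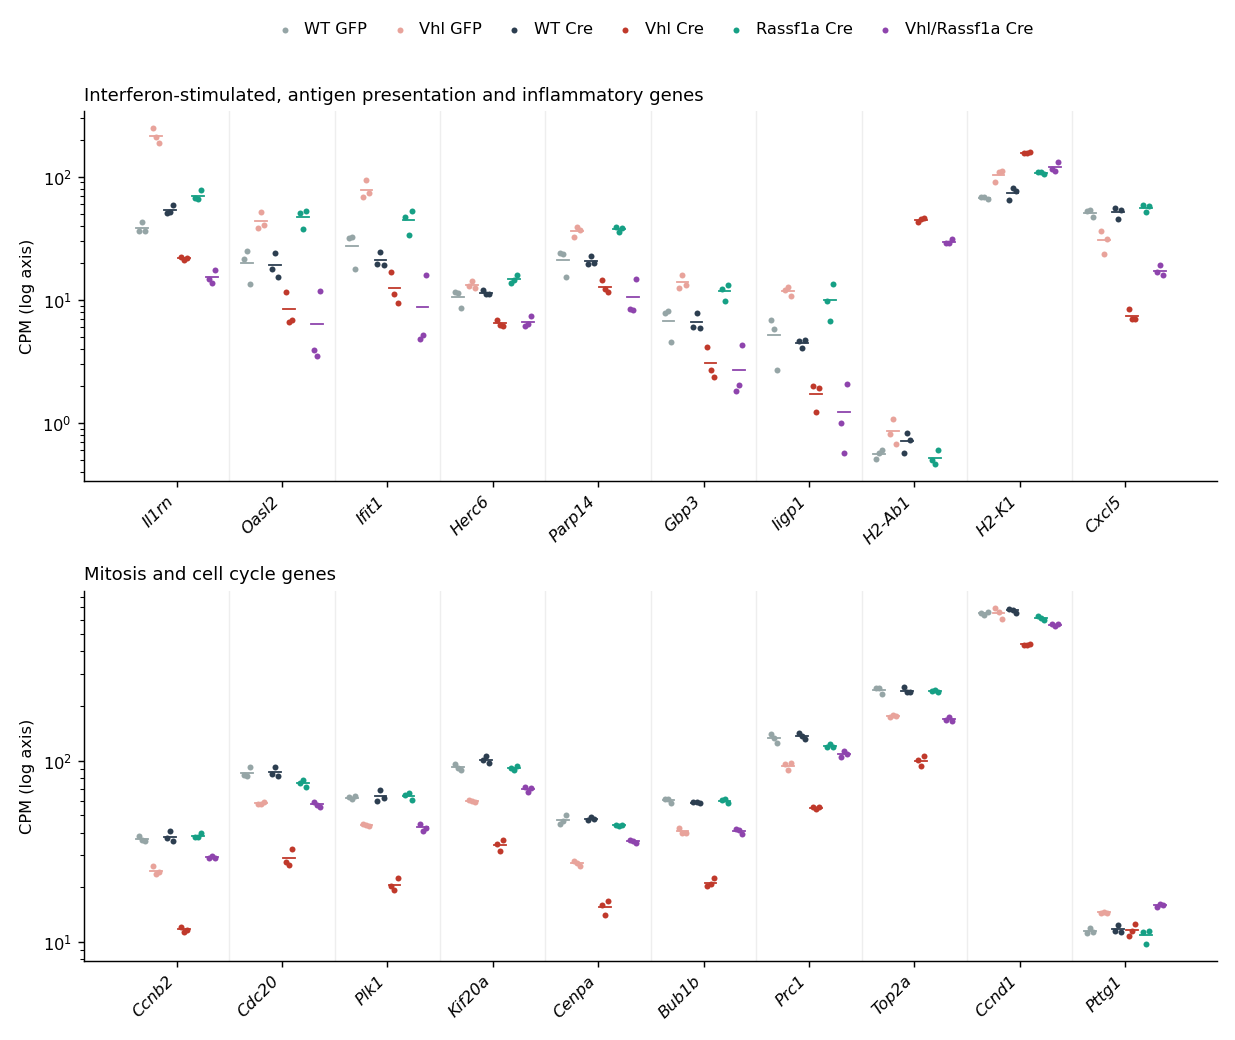
Each point is the level of a gene in 1 library in CPM on a log axis, in 6 groups of 3 libraries, with the mean as a line. In the upper panel Vhl GFP is the highest of the first 4 groups for the first 7 genes, and H2-Ab1 is high only in the libraries with both an altered Vhl and Cre. In the lower panel Vhl Cre is lowest for every gene but Pttg1, and for the first 8 Vhl GFP lies between it and the WT groups.

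The interferon genes were higher in the Vhl line with GFP and not with Cre. In Vhl GFP 29 of 36 interferon-stimulated genes were higher than in WT GFP and the rest did not pass, with a median of 0.93. In Vhl Cre 1 was higher than in WT Cre and 10 were lower, which is near the 21.9% of all genes, with a median of -0.41. The lower count depended on the setting: it was 6 without WT Cre replicate 2, the highest of its group for Oasl2, Ifit1, Parp14 and Gbp3, 22 with no filter on low counts or with only the groups compared in the fit, and 18 without the pair of GFP libraries that stand apart. The interaction passed downward for 29 of the list.

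Oasl2, an antiviral protein of the oligoadenylate synthetase family, shows the order. It was at 11.6, 6.64 and 6.88 CPM in Vhl Cre, 17.9, 23.8 and 15.4 CPM in WT Cre, 38.2, 51.5 and 40.6 CPM in Vhl GFP and 21.3, 25.1 and 13.3 CPM in WT GFP. The groups with Cre did not overlap (log2 fold change -1.19 with SE 0.40, adjusted p = 0.0184). That call was lost without WT Cre replicate 2 (adjusted p = 0.0790), Vhl Cre replicate 2 (0.0770) or Vhl Cre replicate 3 (0.0673). The difference with GFP was 1.12, and the interaction was -2.30 (adjusted p = 0.00265). Iigp1, a GTPase against parasites, was at 2.00, 1.24 and 1.93 CPM against 4.60, 4.03 and 4.77 CPM (-1.38), Herc6 at 6.92, 6.25 and 6.16 CPM against 11.9, 11.1 and 11.1 CPM (-0.82) and Parp14 at 14.4, 12.2 and 11.5 CPM against 19.4, 22.8 and 19.8 CPM (-0.70). Xaf1, which promotes cell death, was the member that was higher (1.04). Ifit1, at 16.8, 11.1 and 9.47 CPM against 19.5, 24.4 and 19.3 CPM, did not pass with Cre (adjusted p = 0.0693, and 0.0338 without Vhl Cre replicate 1).

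Of 26 sensors and signalling genes of the pathway, 5 were higher and 8 lower with Cre, near the 22.8% and 21.9% of all genes, and 16 higher and 1 lower with GFP (17.2% and 14.9%). The lower count was 5 without WT Cre replicate 2 and 13 with no filter or with only the groups compared, and the higher count was 3 with no filter. Cgas, the sensor of cytosolic DNA, was at 4.82, 4.40 and 4.78 CPM against 7.91, 7.62 and 8.95 CPM (log2 fold change -0.81 with SE 0.13, adjusted p = 1.48e-05). Its partner Tmem173, also called STING, was at 27.4, 29.2 and 27.6 CPM against 48.1, 49.2 and 50.5 CPM (log2 fold change -0.81 with SE 0.07, adjusted p = 1.79e-09) and was lower with GFP by less (-0.40). The transcription factor Irf1 was lower (-0.57), and the receptor chains Ifngr1 (0.34) and Ifngr2 (0.23) were higher.

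Antigen presentation genes did not move as a body across the classes. Of 9 class II genes 6 were higher and 1 lower (22.8% and 21.9% of all genes), with a median of 0.70. With GFP 2 of them were higher and the rest did not pass. Beside H2-Ab1, its alpha chain partner H2-Aa was higher too, 1.19, 1.22 and 1.58 CPM against 0.0857, 0.0520 and 0.139 CPM, which is a few counts per library in WT Cre. Ciita, the master switch of the class, was at 0.279, 0.257 and 0.201 CPM against 0.114, 0.156 and 0.251 CPM and did not pass, and Cd74, the invariant chain, was too low to be tested. Rfx5, a promoter-binding factor of the class, was lower (-0.79), and Rfxap and Rfxank, its partners, were higher (0.70 and 0.58). Of 15 class I genes 1 was higher and 3 lower. H2-K1, a classical class I chain, was at 156, 155 and 159.5 CPM against 64.3, 80.7 and 77.0 CPM (log2 fold change 1.08 with SE 0.12, adjusted p = 7.12e-08) and was also higher with GFP (0.62), while Nlrc5, the activator of the class, was lower (-0.85). H2 genes are a family of close relatives, so their counts are uncertain where reads could be shared.

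Inflammatory factors were lower more often than higher, 14 against 6 of 28, and with GFP 11 against 9. Il1rn, the natural blocker of the interleukin 1 receptor, was at 22.2, 21.2 and 21.9 CPM in Vhl Cre and 50.8, 51.8 and 59.0 CPM in WT Cre (log2 fold change -1.31 with SE 0.12, adjusted p = 7.56e-09). With GFP the order was turned, 248, 209 and 187 CPM in Vhl against 36.5, 42.9 and 36.1 CPM in WT, and the interaction of -3.79 was the lowest of all genes named by the rule. Il1rl1, the receptor of interleukin 33, was at 231, 192 and 213 CPM against 682, 652 and 662 CPM (log2 fold change -1.65 with SE 0.10, adjusted p = 1.13e-11). Ccl2, a chemokine for monocytes, was lower (-0.91). Tnfaip3, a brake on NF-kB, was at 55.3, 55.1 and 54.8 CPM against 24.2, 24.2 and 22.1 CPM (1.23), and the complement protein C3 (1.65) and the chemokine Cxcl12 (0.65) were higher.

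Collagens did not share a direction. With Cre 11 of 26 were higher and 11 lower, whereas with GFP 18 were higher and the rest did not pass. Col6a3 was at 734, 708 and 738 CPM against 1609, 1724 and 1703 CPM (log2 fold change -1.21 with SE 0.08, adjusted p = 3.84e-11), with no call with GFP. Col18a1, the source of endostatin, was at 46.8, 49.7 and 52.5 CPM against 125, 142 and 139 CPM (log2 fold change -1.45 with SE 0.12, adjusted p = 1.56e-09) and was higher with GFP (0.50). Col14a1 was higher with Cre (1.87) and more so with GFP (2.59). The main collagen chain Col1a1 did not pass (-0.02).

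Of 32 other matrix genes 8 were higher and 11 lower with Cre (22.8% and 21.9% of all genes, with the higher count near that share). With GFP 25 were higher and 3 lower (17.2% and 14.9%), and 21 passed the interaction downward (12.5%). Ltbp4, which holds TGF-beta in the matrix, was at 22.5, 25.0 and 27.4 CPM against 60.0, 66.5 and 67.8 CPM (log2 fold change -1.38 with SE 0.12, adjusted p = 2.58e-09), and higher with GFP (0.30). Vcan, a large proteoglycan, was lower (-0.94). Fn1, fibronectin, was higher with Cre (0.53) and with GFP (0.75). Among proteases and their inhibitors 14 of 25 were higher and 7 lower, against 19 higher and 4 lower with GFP. Timp3, an inhibitor of metalloproteases, was at 2028, 2028 and 2001 CPM against 782, 795 and 814 CPM (log2 fold change 1.34 with SE 0.05, adjusted p = 2.25e-16), and was higher with GFP by 1.09. Serpinf1, a secreted inhibitor of vessel growth, was at 244, 256 and 264 CPM against 486, 542 and 544 CPM (log2 fold change -1.04 with SE 0.06, adjusted p = 2.32e-12) and was higher with GFP (0.26).

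Contractile genes were lower in 10 of 20 cases and higher in 2, and the difference was there with GFP (14 lower and 1 higher). Acta2, smooth muscle actin, had log2 fold changes of -0.54 with Cre and -0.55 with GFP. Targets of the growth regulator YAP were higher in 11 of 20 cases and lower in 4. Ankrd1 was at 179, 199.9 and 184 CPM against 130, 122 and 113 CPM (0.63), and Ccn2 at 1407, 1352 and 1362 CPM against 887, 851 and 845 CPM (0.67). Both were lower in the Vhl line with GFP (-0.51 and -0.25).

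Of 10 genes of the insulin-like growth factors 6 were higher and 2 lower with Cre, and 6 higher and 2 lower with GFP, while the interaction passed upward for 1 and downward for 3. Igfbp2, a binding protein, was at 464, 472 and 489 CPM in Vhl Cre against 96.0, 102 and 109 CPM in WT Cre (2.21), and at 380.2, 428 and 419 CPM in Vhl GFP (2.33 against WT GFP), with no call in the interaction. The factor Igf1 behaved likewise (1.50 and 1.18). Igf2r, which clears Igf2, was lower with Cre (-0.47), with no call with GFP (interaction -0.50). In the Wnt list 11 of 20 were higher and 1 lower with Cre, and 8 higher and 1 lower with GFP. The interaction passed upward for 6 and downward for 5. Sfrp2, a secreted Wnt modulator, was at 28.7, 33.3 and 34.1 CPM against 11.8, 12.4 and 11.3 CPM (log2 fold change 1.44 with SE 0.15, adjusted p = 3.75e-08), with no call with GFP. Clock genes were higher in 9 of 19 cases and lower in 2 with Cre, and 9 were higher and 6 lower with GFP. Ciart, a repressor of the clock, was at 14.0 CPM ± 0.697 against 3.31 CPM ± 0.468 (SD, n = 3 each; log2 fold change 2.07 with SE 0.11, adjusted p = 6.73e-13), and the receptor Rora at 63.0, 58.6 and 59.3 CPM against 15.8, 15.0 and 17.1 CPM (1.92).

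Genes of cholesterol synthesis were mostly lower. Of 26 genes of cholesterol synthesis and its control 22 were lower and 1 was higher, with medians of -0.61 with Cre and -0.32 with GFP, where 19 were lower. Cyp51, a sterol demethylase, was at 119, 113 and 115 CPM against 231, 220 and 234 CPM (log2 fold change -0.98 with SE 0.06, adjusted p = 1.14e-11). In the lipid list 8 of 30 were higher, near the 22.8% of all genes, and 11 lower (21.9% of all genes), among the latter the desaturase Scd1 (-1.25) and the elongase Elovl6 (-1.08). Cebpa, a factor of fat cell formation, was lower with Cre (-1.58) and higher with GFP (1.12).

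The amino acid response was lower in 26 of 32 genes and higher in 3, against 15 lower and 2 higher with GFP. Psat1, of serine synthesis, was at 89.9, 93.2 and 94.5 CPM against 235, 249.8 and 247 CPM (log2 fold change -1.40 with SE 0.05, adjusted p = 3.89e-16), and Mthfd2, of mitochondrial folate metabolism, at 29.9, 33.7 and 31.5 CPM against 78.5, 81.3 and 81.4 CPM (-1.34). Its relative Mthfd1l went the other way, at 119.6, 116 and 121 CPM against 53.5, 52.0 and 53.6 CPM (log2 fold change 1.16 with SE 0.05, adjusted p = 5.56e-15). Antioxidant genes under NRF2 were lower in 15 of 25 cases and higher in 2, with Nqo1 at -0.98 and Gsr at -0.83. With GFP 12 of them were lower and 2 higher. Genes of ribosome biogenesis were lower in 23 of 26 cases with Cre (median -0.41) and in 21 with GFP (median -0.30), and Dkc1, of the box H/ACA particles, was at 28.9, 29.1 and 26.1 CPM against 54.0, 53.7 and 51.5 CPM (-0.92).

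Hox and other genes of body position differed between the lines. Of 47 tested 26 were higher and 4 lower with Cre, and 23 higher and 5 lower with GFP. Hoxa5 was at 20.4, 18.0 and 19.7 CPM in Vhl Cre and 14.6, 16.9 and 16.3 CPM in Vhl GFP, against 6.85, 6.68 and 7.97 CPM in WT Cre and 7.79, 7.04 and 6.55 CPM in WT GFP. Hoxb6 had log2 fold changes of 1.30 and 0.97, and Pax1 of 1.50 and 1.10. Both Xist, the RNA of the silent X chromosome, and the Y-linked genes were counted in every library. Xist was at 196, 144 and 173 CPM in Vhl Cre and 178, 128 and 169.6 CPM in WT Cre, and Ddx3y at 60.5, 59.1 and 55.1 CPM and 51.5, 47.3 and 56.9 CPM, neither past the threshold with Cre. Kdm5d was lower (-0.41), also with GFP (-0.58). Of the 5 sex-linked genes 1 was higher and 3 lower in Vhl GFP than in WT GFP, and the interaction passed upward for 2. They summed to 339 to 360 CPM in Vhl GFP and 241 to 294 CPM in WT GFP.

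Fibroblast markers were lower in 8 of 15 cases and higher in 2. The lower count was 5 without WT Cre replicate 1, 4 without WT Cre replicate 3 and 5 without Vhl Cre replicate 2. Pdgfra, a receptor that marks mesenchymal cells, was at 58.5, 56.8 and 53.5 CPM against 112, 114 and 119 CPM (log2 fold change -1.03 with SE 0.09, adjusted p = 1.77e-09). Markers of some other cell types were higher in Vhl Cre. Of 8 epithelial markers tested 7 were higher and Krt7 did not pass, and the list summed to 142 to 163 CPM in Vhl Cre, 78.4 to 93.9 CPM in WT Cre, 48.8 to 73.4 CPM in Vhl GFP and 88.8 to 111 CPM in WT GFP. In CPM most of this sum was Krt19, at 111, 129.6 and 126 CPM against 61.1, 72.2 and 61.1 CPM (0.92), which was lower in the Vhl line with GFP (-1.18). The defining epithelial genes Epcam, Krt5, Krt14, Esrp1 and Grhl2 were under 0.5 CPM in all 6 libraries. Of 8 mesothelial markers, which include the keratins, 7 were higher, with Upk1b at 6.87, 7.77 and 7.71 CPM against 3.37, 2.71 and 3.73 CPM. The call of Msln, among these 7, was lost whichever of the 6 libraries was left out (adjusted p 0.0632 to 0.11, edgeR quasi-likelihood test). With GFP 4 mesothelial markers were higher and 2 lower.

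The muscle list summed to 380 to 457 CPM in Vhl Cre and 199 to 244 CPM in WT Cre, mostly the actin Acta1 at 301, 368 and 350.3 CPM against 149.9, 184 and 167 CPM (1.02), while the muscle regulators Myod1, Myf5 and Myog were under 0.5 CPM. The cartilage list summed to 534 to 640 CPM in Vhl Cre, 326 to 364 CPM in WT Cre and 673 to 819 CPM in Vhl GFP, mostly Col2a1 at 481, 495 and 583 CPM against 279.9, 316 and 282 CPM (0.83). Of 9 endothelial markers 4 were higher and 1 lower, with Pecam1 and Cdh5 under 0.5 CPM. The endothelial list summed to 131 to 136 CPM in Vhl Cre and 101 to 107 CPM in WT Cre. Of 7 neural and neural crest markers tested 3 were higher and 1 lower. The neural list summed to 603 to 627 CPM in Vhl Cre and 505 to 540 CPM in WT Cre. Macrophage markers summed to 6.06 to 6.60 CPM in Vhl Cre and 6.86 to 6.88 CPM in WT Cre, and all 9 erythroid markers were under 0.5 CPM. The kidney tubule gene Lrp2, the endocytic receptor megalin, was at 25.4, 24.7 and 25.1 CPM against 9.31, 10.1 and 7.39 CPM (log2 fold change 1.49 with SE 0.14, adjusted p = 4.82e-09), while the tubule list as a whole summed to less in Vhl Cre, 196 to 200 CPM against 244 to 265 CPM, mostly Aqp1 (-0.54). The part of these cell types in the results was not tested.

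A comparison of the same kind could be made in 6 libraries outside the main comparison. It too sets different lines against each other. The difference between the GFP libraries of these lines was not tested here, so a line difference is not set apart from that of an altered Vhl. Between Vhl/Rassf1a Cre and Rassf1a Cre 6166 genes passed (37.2%), 3088 higher and 3078 lower with an altered Vhl (18.6% each). Of the 7413 genes called in Vhl Cre against WT Cre, 4116 were called in the same direction here (55.5% of the first list and 66.8% of the second) and 258 in the opposite direction (3.48% and 4.18%), with r = 0.646 across genes. Of the 1018 genes at least 2-fold higher, 722 (70.9%) were higher here, and of the 555 at least 2-fold lower, 325 (58.6%) were lower.

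The hypoxia genes moved the same way there. Vhl was at 1.81, 2.70 and 1.77 CPM against 26.1, 24.9 and 26.1 CPM (-3.65), Egln3 at 189, 185 and 199.9 CPM against 22.0, 25.1 and 25.1 CPM (2.99) and Car9 at 49.2, 54.5 and 53.2 CPM against 3.37, 2.41 and 3.19 CPM (4.12). Glycolysis genes were higher in 21 of 23 cases and lower in 1, which was again Eno2 (-0.82). Atp7b (5.46), A2m (5.87), H2-Ab1 (5.80) and Ache (4.46) were among the genes higher there as well, and Hif1a (-1.10), Gsta4 (-2.27) and Slc7a5 (-2.15) were lower.

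Other groups differed in size or side. The mitosis list was lower in 28 of 35 cases at a median of -0.29, against -1.28 in Vhl Cre against WT Cre. Interferon-stimulated genes were lower in 35 of 36 cases at a median of -1.67, and Xaf1 did not pass. Hox and position genes were higher in 21 cases and lower in 6. Among line genes, Serpina3n had a log2 fold change of 0.32 there against 4.11 in the main comparison, and Igfbp2 of 0.11 against 2.21. These differences between comparisons were not tested.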

How the data were processed

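Total RNA of 24 cultures or portions of culture of mouse embryonic fibroblasts (8 groups of 3) was sequenced from stranded libraries, per the labels' protocols. The authors deposited 1 table of raw counts, whole numbers of reads per gene for 45706 gene IDs, of which 45143 were paired with a symbol through GENCODE M21. STAR 2.5.2b, Trimmomatic 0.38 and build GRCm38 are named in the submitters' processing notes, while no source used here gives the counting tool or its strand setting. Reads of near-identical copies, and of overlapping or antisense genes, therefore cannot be told apart.

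Counts were analysed as deposited with edgeR 4.0.16 in R 4.3.3: filterByExpr with a minimum count of 10 and a total of 15, TMM library sizes, and the quasi-likelihood test in 1 fit of 24 libraries and 8 groups with 16 residual degrees of freedom. P-values were adjusted over all 16573 genes by the Benjamini-Hochberg method, with a threshold of 0.05. CPM and fold changes were computed from the counts, and the text gives log2 fold changes in brackets where no other quantity is named. At these depths the common biological coefficient of variation was 7.73%. In simulated counts for Vhl Cre against WT Cre, 200 of 16573 genes were changed. Of these 200, 99.5% were recovered, and 5.24% of the genes called were ones that had not been changed. In the data 7413 genes were called, and 1573 of them were at least 2-fold. Whether these shares hold for those calls was not tested.

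The members and lists were chosen with earlier results of these data known. Named were all members of the ligase and oxygen-sensing lists, and the 12 highest and 12 lowest genes with a mean of at least 5 CPM, groups that did not overlap and a symbol that is no clone name. Named were also up to 6 members of each other list by the smallest adjusted p, markers and sex-linked genes of at least 1 CPM, the 8 largest differences shared with the GFP libraries and the 6 highest and 6 lowest interactions, with the same minimum level and symbol rule, and 3 pairs of related subunits. Slc2a1, Hk2, Pfkfb4, Ddit3, Pttg1 and Ciita, and marker genes given as under 0.5 CPM, were named after their values were seen. A few genes that the rule names are not reported here. Alternatives were DESeq2 1.42.0 (its size factors and its Wald test), no filter, a 2-fold minimum, only the groups compared, the replicate number as a block, and each library left out. A correction for GC content and a fit without 2 GFP libraries that stand apart were added after seeing the data.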

Additional observations from a re-analysis of the deposited data

Results flagged for a closer look

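The difference between the Vhl and WT lines was tested for being other with Cre than with GFP, and 3846 genes differed in that test (edgeR quasi-likelihood, Benjamini-Hochberg adjusted p under 0.05). Of the 295 named genes that were tested, 211 did so, and 34 of them had passed the test in opposite directions with Cre and with GFP. Over all genes the share that passed was 23.2%. Many of the 295 were named for their difference in the same Cre libraries or for this test itself. The 211 therefore say nothing of genes at large. Values below are the log2 fold change with Cre less that with GFP.

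In Vhl itself the value was -3.40, and among genes with a mean of at least 5 CPM and a symbol that is no clone name the highest were those of Atp7b (6.53), H2-Ab1 (5.34), A2m (5.09), Ache (4.98), Smtnl2 (4.76) and Car9 (4.60). Hypoxia-responsive genes that were lower in the Vhl line with GFP and higher with Cre were Egln3 (3.58), Gpr35 (3.54), Stc2 (2.88), Apln (2.62), Pgk1 (1.56), Adm (1.49) and Eno1 (0.79). Ankrd1 (1.13) and Ccn2 (0.92), both targets of YAP, had the same order, as had the keratins Krt19 (2.09) and Krt18 (1.81) and the muscle actin Acta1 (2.18).

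Genes higher in the Vhl line with GFP and lower with Cre were led by Il1rn (-3.79) and Islr (-2.96), a matrix protein of fibroblasts. Cebpa (-2.70), the interferon-stimulated genes Iigp1 (-2.55), Oasl2 (-2.30), Gbp3 (-2.12), Parp14 (-1.48) and Herc6 (-1.15), and the endothelial factor Erg (-2.39) followed. Capn6, a calpain relative, was at -2.21. Ifit1 (-2.26) passed with GFP and in this test but not with Cre. Among matrix genes and markers of the mesenchyme the values were -1.94 for Col18a1, -1.68 for Ltbp4, -1.45 for Comp, -1.30 for Serpinf1, -0.78 for Pdgfrb and -0.74 for Col3a1. Of these, Comp and Col3a1 each lost the call with Cre when any 1 of 4 libraries was left out (WT Cre replicates 2 and 3, Vhl Cre replicate 1, and Vhl Cre replicate 2 for Comp or 3 for Col3a1), with adjusted p from 0.115 to 0.180 for Comp and from 0.0643 to 0.150 for Col3a1 in the edgeR quasi-likelihood test. Those of the others were -1.33 for Steap3, an iron reductase, -1.26 for Socs3, -1.12 for Arnt2, -1.01 for Eno2, -0.70 for the clock gene Tef and -0.65 for the peptidase Erap1.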

How the results depend on the processing

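With a minimum of 2-fold the counts past the threshold were 1573 for Vhl Cre against WT Cre, 855 for Vhl GFP against WT GFP, 1009 for the interaction and 1247 for Vhl/Rassf1a Cre against Rassf1a Cre, of which 64.7%, 67.8%, 57.4% and 69.4% were higher, against 51.0%, 53.7%, 46.1% and 50.1% with no minimum. All other alternatives run gave counts within 1.5 times the main ones. Leaving out 1 library of the groups compared gave 6494 to 6748, 4356 to 4778, 3368 to 3536 and 5237 to 5410 genes in the same order of comparisons. Vhl Cre against WT Cre gave 7382 genes with the DESeq2 Wald test, 7341 with no filter, 8313 with only the groups compared, 8878 with the GC correction and 8939 without the 2 GFP libraries that stand apart.

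Deviations from the group means of same-numbered Vhl Cre and WT Cre libraries correlated at 0.354, 0.374 and 0.0194 across genes, and Vhl Cre replicate 3 correlated best with WT Cre replicate 2 (0.215), so the numbers were not taken to pair the samples. The deviation of a library from the others of its group also correlated with the GC content of genes. The values ran from -0.569 to 0.635 in WT Cre and from -0.599 to 0.437 in Vhl Cre. For the log2 fold change of Vhl Cre against WT Cre the value was 0.0963. With the replicate number as a block 7251, 5161, 3701 and 6012 genes passed, and none of the 295 named genes changed side of the threshold. Over all alternatives 23 of the 295 changed side in at least 1, and none turned its direction past the threshold. Many of the 295 were named for a small adjusted p with Cre, so these counts do not stand for all genes. The common variation, which takes in the libraries that stand apart, limits the calls of genes whose groups differ little.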
